A study of Mus musculus with 6 samples.

Results

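Platelet chemokine mRNAs were examined in platelets of leukemia-bearing and control mice. The set was made of 4 genes chosen by symbol, Pf4, Ppbp, Ccl5 and Cxcl5, and all 4 were found among the 14975 genes with a row in the deposited expression table. Platelet RNA was sequenced from 3 control and 3 pre-AML libraries. Pre-AML mice were sub-lethally irradiated animals that had received hematopoietic stem and progenitor cells (HSPCs) transformed with the MLL-AF9 fusion gene, and their platelets were taken 1 week after transplantation, before overt acute myeloid leukemia (AML). Control mice (BMT control) were irradiated animals that had received normal bone marrow. All mice were on the C57BL/6 background, and the labels give the genotype as WT for control and AML for pre-AML. MLL-AF9 was carried by a retrovirus that also encodes GFP, and the GFP-positive cells came from a previous recipient, so that the transplanted leukemia was passed on rather than newly made in each mouse. Platelets made from host and from transplanted cells were not separated before sequencing. CD45-positive and Ter119-positive cells were depleted before RNA was extracted. The study's methods speak of 3 independent mice per group, whereas the sample descriptions mention 2 replicates and pools of 3 to 4 mice. Where libraries shared an animal or a pool, p-values measure only the spread between libraries.

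Chemokines are small secreted proteins that guide leukocytes through G protein-coupled receptors. Platelets carry them in alpha-granules, bound to the proteoglycan serglycin, and release them on activation. Pf4 encodes platelet factor 4 (CXCL4), which binds heparin and restrains megakaryocyte growth. Ppbp encodes pro-platelet basic protein, the precursor of the neutrophil attractant CXCL7 (NAP-2). Ccl5 encodes RANTES, which attracts monocytes and T cells and is also made in large amounts by T and NK cells. Cxcl5 encodes a neutrophil attractant that signals through CXCR2. Platelets have no nucleus, so their mRNA was inherited from the megakaryocyte that shed them.

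Cxcl5, Ppbp and Pf4 lie next to each other on the plus strand of chromosome 5 (GRCm38): Cxcl5 at chr5:90759360-90761624, Ppbp at chr5:90768518-90770063 and Pf4 at chr5:90772435-90773383. The gap between Cxcl5 and Ppbp is 6893 bases and that between Ppbp and Pf4 is 2371 bases. Ccl5 lies on the minus strand of chromosome 11, at chr11:83525778-83530518. The exons of a gene, counted once where transcripts overlap, cover 721 bases in Pf4, 1083 in Ppbp, 960 in Ccl5 and 1863 in Cxcl5.

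The promoters of Pf4 and Ppbp are shown because these 2 genes lie side by side and had nearly the same pattern across the libraries. Each line gives the 250 bases before the gene's start (RefSeq, GRCm38.p6), 5′ to 3′ on the plus strand. They are chr5:90772185-90772434 for Pf4 and chr5:90768268-90768517 for Ppbp. Capitals mark the ETS-type word GGAAGT, the core that Fli1 and related factors bind, which lies on the minus strand and so appears in these lines as ACTTCC, and the TATA box word TATAAA.
Pf4: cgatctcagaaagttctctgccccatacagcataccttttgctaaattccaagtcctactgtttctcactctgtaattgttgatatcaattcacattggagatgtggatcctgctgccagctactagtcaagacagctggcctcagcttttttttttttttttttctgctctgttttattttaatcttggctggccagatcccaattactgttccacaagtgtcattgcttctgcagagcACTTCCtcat
Ppbp: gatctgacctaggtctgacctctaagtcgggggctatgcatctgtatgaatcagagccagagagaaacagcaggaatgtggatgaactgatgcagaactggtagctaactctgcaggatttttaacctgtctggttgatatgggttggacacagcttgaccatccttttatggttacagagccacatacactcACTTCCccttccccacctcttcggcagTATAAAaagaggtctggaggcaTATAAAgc

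Counted from the start, with -1 as the base just before it, the ETS-type word was at -10 to -5 in Pf4 and at -57 to -52 in Ppbp. Ppbp also held TATAAA at -30 to -25 and at -8 to -3, and Pf4 held none in this window. A GATA-type word, meaning GATA with A or T before it and A or G after it, was in neither window. Searched on both strands in windows of the same length, the ETS-type word was in 19.7% of 32851 RefSeq promoters, the TATA box word in 12.4% and a GATA-type word in 26.5%. The words searched do not overlap one another here, and a match describes letters only.

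Pf4 and Ppbp were among the most abundant mRNAs of these platelets. Levels are given as FPKM (fragments normalized to gene length and library size), which allows genes to be compared per length. Pf4 had 79255, 62176 and 58030 FPKM in control platelets 1, 2 and 3, and 60066, 59345 and 38150 FPKM in pre-AML platelets 1, 2 and 3. It ranked first or second of all listed genes in every library. Ppbp had 20466, 17187 and 16221 FPKM in the control libraries and 15627, 15972 and 10090 FPKM in the pre-AML libraries, and its rank lay between 4 and 6. The highest value of both genes was in control 1 and the lowest in pre-AML 3.

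Ccl5 and Cxcl5 were far lower. Ccl5 had 59.6, 85.5 and 79.0 FPKM in control platelets and 84.8, 78.4 and 71.4 FPKM in pre-AML platelets, with ranks between 395 and 510. Its lowest value was in control 1, where Pf4 and Ppbp were highest. Cxcl5 had 11.0, 8.43 and 10.4 FPKM in control platelets and 9.32, 7.93 and 4.60 FPKM in pre-AML platelets, with ranks between 1456 and 2255. The order Pf4, Ppbp, Ccl5, Cxcl5 held in all 6 libraries, and no value of one gene reached into the range of its neighbour in that order.

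**Figure D1:**
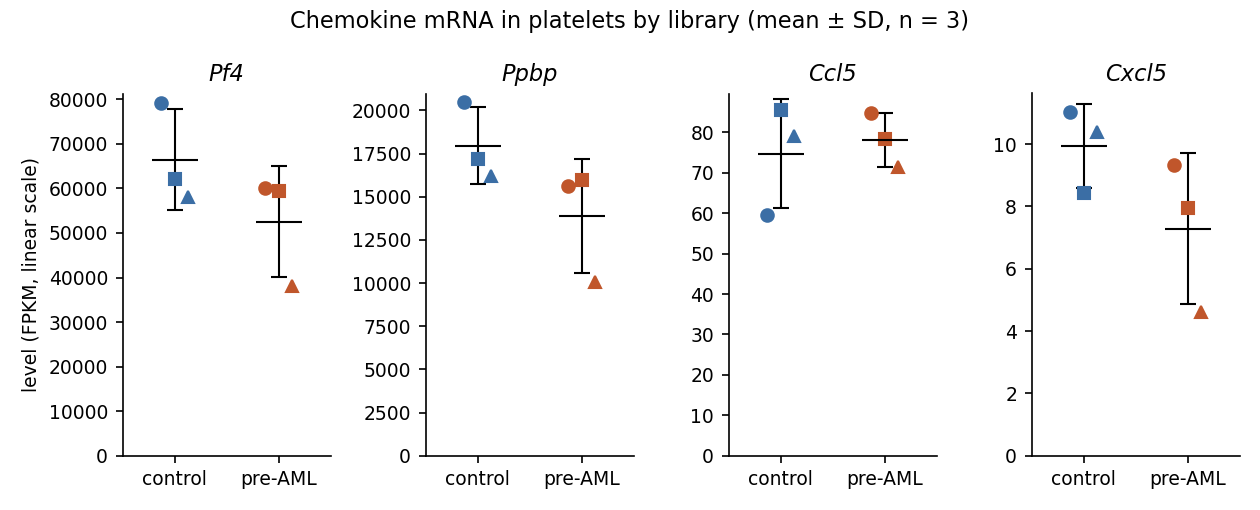
FPKM (y axis, linear, from 0, with a separate scale for each gene) of Pf4, Ppbp, Ccl5 and Cxcl5 in control and pre-AML platelets. Circles, squares and triangles are libraries 1, 2 and 3, the horizontal line is the mean and the bars are the SD (n = 3). The pre-AML triangle is the lowest point for Pf4, Ppbp and Cxcl5, and only for Ppbp do the groups not overlap.

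The question was whether platelet chemokine mRNA differed between control and pre-AML platelets. None of the 4 genes passed an adjusted p of 0.05 (limma-trend on log2(FPKM + 1) with Benjamini-Hochberg adjustment over 4412 tested genes), and 0 of 4 had an unadjusted p under 0.05. With limma-voom on reads recovered from the FPKM values, 0 of 4 passed the adjusted threshold and only Ppbp had an unadjusted p under 0.05. Among all tested genes 0.0227% passed the adjusted threshold, which is 1 gene. The fitted log2 fold change of pre-AML over control was below 0 for Pf4, Ppbp and Cxcl5 and above 0 for Ccl5. The median of the 4 was -0.38, and that of all tested genes was -0.06. Since whole platelet preparations were sequenced, fewer platelets with a given mRNA and less of it per platelet cannot be told apart.

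Ppbp was the member with the smallest p. Its mean was 17958 ± 2225 FPKM for control against 13896 ± 3300 FPKM for pre-AML platelets (SD, n = 3 each). The log2 fold change was -0.39 with a 95% interval of -0.84 to 0.05 (adjusted p = 0.522 from limma-trend). All 3 pre-AML values were below all 3 control values, by a margin that was small beside the spread, since the lowest control value was 16221 FPKM and the highest pre-AML value 15972 FPKM. The same held for 1 of 4 chemokines and for 12.8% of all tested genes. As RPM, the recovered reads scaled to the same total in every library, Ppbp had 21797, 18876 and 17455 in control and 16633, 17508 and 14341 in pre-AML platelets, and these values overlapped, because pre-AML 2 was above control 3. On that scale 9.78% of genes had all pre-AML values below all control values.

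Pf4 averaged 66487 ± 11250 FPKM for control against 52520 ± 12450 FPKM for pre-AML platelets (SD, n = 3 each). Its log2 fold change was -0.36 with an interval of -0.82 to 0.11 (adjusted p = 0.534 from limma-trend). The groups overlapped, because pre-AML 1 and pre-AML 2 both lay above control 3. As RPM, Pf4 had 56195, 45460 and 41572 in control and 42562, 43308 and 36098 in pre-AML platelets, which also overlapped.

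Cxcl5 averaged 9.94 ± 1.35 FPKM for control against 7.29 ± 2.43 FPKM for pre-AML platelets (SD, n = 3 each). The log2 fold change was -0.44 with an interval of -0.97 to 0.09 (adjusted p = 0.526 from limma-trend), and the groups overlapped. It rested on 200 to 241 recovered reads per library. As RPM, pre-AML 3 had 11.2 with a 95% Clopper-Pearson interval of 9.74 to 12.9, and control 1 had 20.2 with an interval of 17.7 to 22.9. These intervals cover counting error only, since amplified reads without molecular identifiers are not independent molecules.

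Ccl5 averaged 74.7 ± 13.5 FPKM for control against 78.2 ± 6.68 FPKM for pre-AML platelets (SD, n = 3 each). The log2 fold change was 0.08 with an interval of -0.30 to 0.46 (adjusted p = 0.862 from limma-trend), and the groups overlapped. In the deposited FPKM values the log2 fold change was -0.07 without control 1, so that its direction there depended on that library. As RPM, Ccl5 had 56.3, 83.2 and 75.4 in control and 80.0, 76.2 and 90.0 in pre-AML platelets, which also overlapped.

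The size of these differences depended on pre-AML 3 and on how the libraries were scaled. Without pre-AML 3 the log2 fold change was -0.14 for Pf4, -0.18 for Ppbp and -0.18 for Cxcl5, and without control 1 that of Pf4 was -0.22. The deposited FPKM values of pre-AML 3 had been divided by a library size 1.31 times its recovered reads, whereas this ratio was 0.98 to 1.01 in the other libraries. With the FPKM values scaled to the recovered reads, the log2 fold change was -0.22 for Pf4, -0.26 for Ppbp, 0.21 for Ccl5 and -0.33 for Cxcl5, while the median of all tested genes moved from -0.06 to 0.05. Relative to that median, Pf4 had -0.30 on the deposited scale and -0.28 on the rescaled one. Ppbp had -0.34 and -0.31, Cxcl5 had -0.38 on both, and Ccl5 had 0.13 and 0.16.

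**Figure D2:**
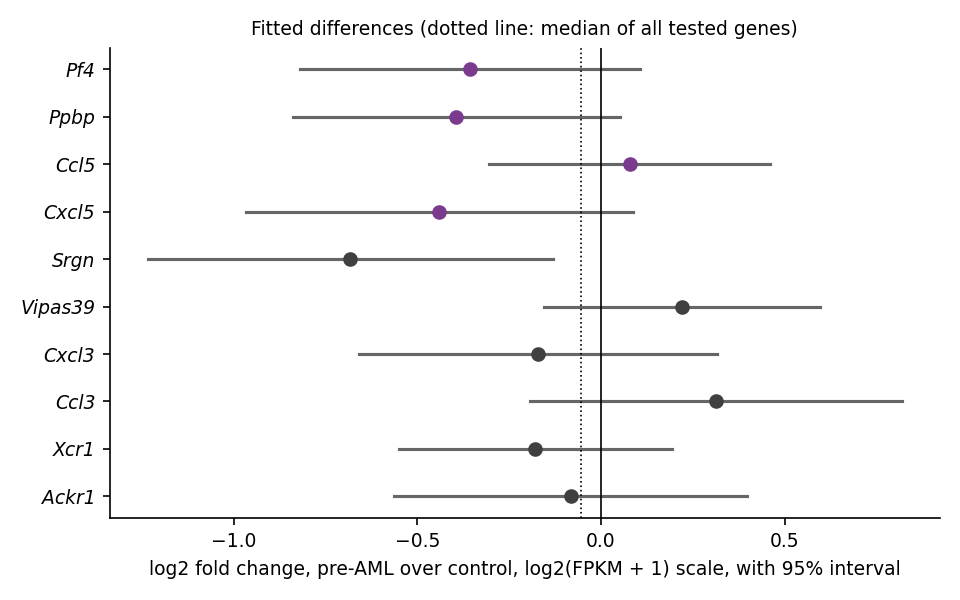
Fitted log2 fold change of pre-AML over control platelets (x axis, log2(FPKM + 1) scale) with its 95% interval for the 4 chemokines (purple) and for the granule genes Srgn and Vipas39 and 4 other chemokine ligands and receptors (dark gray). Of the genes plotted, only Srgn has an interval that does not include 0.

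Together the 4 mRNAs held 18.4%, 15.3% and 14.4% of the FPKM sum in control platelets and 14.2%, 14.8% and 12.8% in pre-AML platelets. The means were 16.0% ± 2.11 and 14.0% ± 1.02 (SD, n = 3 each), with overlapping groups (p = 0.2 by an exact permutation test over libraries, two-sided). With 3 libraries on each side, p cannot fall below 0.1, and none of the 18 shares and ratios tested in this way passed after adjustment (lowest adjusted p = 0.45). Pf4 alone held 10.1% to 14.6% of the FPKM sum and Ppbp 2.68% to 3.78%. The share of Ppbp in control platelets, 3.41% ± 0.330 (SD, n = 3), and in pre-AML platelets, 2.92% ± 0.229 (SD, n = 3), did not overlap (exact permutation test, p = 0.1). The margin was very small, with 3.144% in control 3 and 3.140% in pre-AML 2. How many of all genes did not overlap on this scale was not counted. Since FPKM divides by length, these short mRNAs held less of the reads, and the 4 together took 7.81%, 6.44% and 5.91% of recovered reads in control and 5.93%, 6.09% and 5.05% in pre-AML platelets.

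Pf4 and Ppbp kept nearly the same proportion in every library. The ratio of Pf4 to Ppbp in FPKM was 3.87, 3.62 and 3.58 in control and 3.84, 3.72 and 3.78 in pre-AML platelets, which gave 3.69 ± 0.160 and 3.78 ± 0.064 (SD, n = 3 each; exact permutation test, p = 0.4). This ratio does not depend on how a library was scaled. The ratio of Ccl5 to Cxcl5 ranged far more widely, from 5.41, 10.1 and 7.62 in control to 9.10, 9.89 and 15.5 in pre-AML platelets (exact permutation test, p = 0.3). The highest ratio was in pre-AML 3.

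Likeness was measured across the 6 libraries as the root mean square difference of log2(FPKM + 1) after each gene was centred on its own mean, so that a small value means a like pattern. It is given as a description, since libraries share their depth and scaling. Ppbp was the second nearest of 4411 other tested genes to Pf4, and Pf4 the second nearest to Ppbp, with a difference of 0.042, against deviations of 0.311 for Pf4 and 0.309 for Ppbp from their own means. The other nearest genes to Pf4 were Sec61g, a subunit of the endoplasmic reticulum translocon, at 0.035, and Ndufa4, a subunit of the respiratory chain, at 0.047. For Ppbp they were Hbb-y, an embryonic beta-like globin, at 0.033 and Sec61g at 0.044. Cxcl5 was 0.135 from Ppbp and 0.148 from Pf4, and its nearest genes were Eif5a2, a translation factor, at 0.065, F630028O10Rik at 0.066 and Cyb5r4, a reductase, at 0.075. Ccl5 stood apart from the other 3, at 0.378 from Ppbp, 0.391 from Pf4 and 0.411 from Cxcl5. The nearest genes to Ccl5 were Accsl at 0.014, Star, a mitochondrial cholesterol carrier, at 0.033 and Vta1, a protein of endosomal sorting, at 0.037.

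The other chemokine genes of both clusters were far below Pf4 and Ppbp, and their medians were below those of all 4 members. On chromosome 5 the next gene after Pf4 is Cxcl3, which lies 12719 bases away and had a median of 2.74 FPKM, while the median of Pf4 was 59705 FPKM. Cxcl1 and Cxcl2, neutrophil attractants further along the cluster, had medians of 0.0894 and 0 FPKM. On chromosome 11, Ccl5 had a median of 78.7 FPKM, Ccl3 of 1.75 and Ccl4 of 0. Ccl6 and Ccl9, attractants made by myeloid cells, had at most 0.406 and 0.140 FPKM in 5 libraries and 41.7 and 12.1 FPKM in pre-AML 3.

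**Figure D3:**
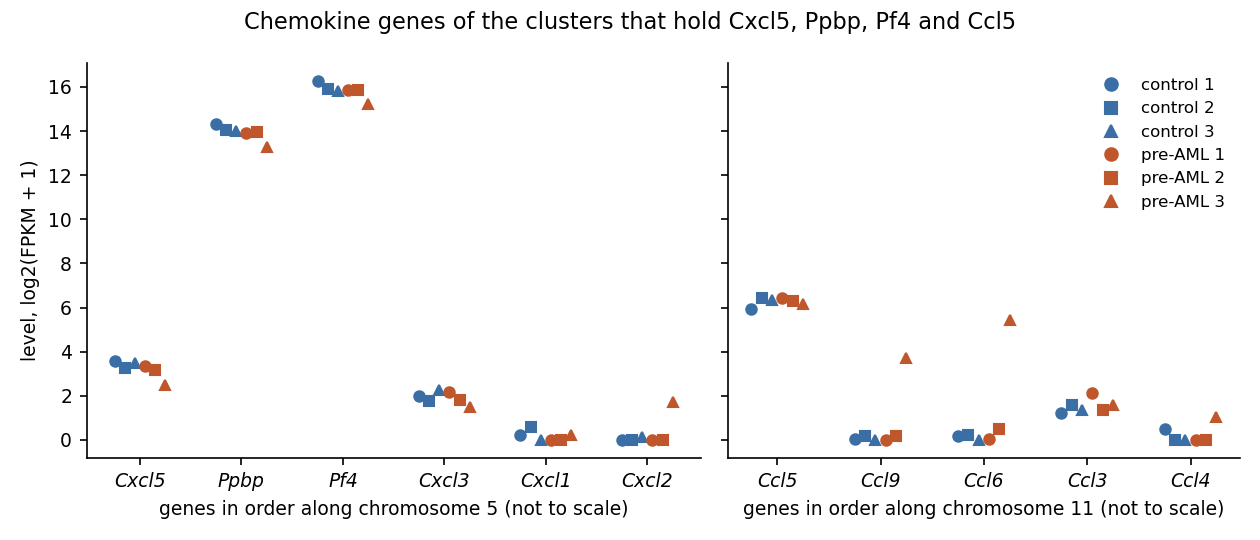
Level as log2(FPKM + 1) (y axis) of the chemokine genes around Cxcl5, Ppbp and Pf4 on chromosome 5 (left) and around Ccl5 on chromosome 11 (right), in their order along the chromosome. Blue symbols are control and orange symbols pre-AML libraries. Ppbp and Pf4 stand above 13 in every library, and Ccl6, Ccl9 and Cxcl2 stand out in pre-AML 3 alone.

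Of 58 other chemokine ligands and receptors in a list written for this comparison, 39 had a row and 6 reached the mean of 1 FPKM needed for testing. With limma-trend, 0 of 6 passed the adjusted threshold and 0 of 6 had an unadjusted p under 0.05, and 0 passed in limma-voom. Of the 6 fitted changes, 3 lay above 0 and 3 below, with a median log2 fold change of 0.11. Among the ligands, Ccl3, which recruits monocytes, had 1.33, 1.95 and 1.54 FPKM in control and 3.34, 1.56 and 2.01 FPKM in pre-AML platelets (log2 fold change 0.31, adjusted p = 0.584). Cxcl3, a ligand of CXCR2 like Cxcl5, had 2.93, 2.38 and 3.72 FPKM in control and 3.48, 2.54 and 1.77 FPKM in pre-AML platelets (log2 fold change -0.17, adjusted p = 0.744). The groups overlapped for both genes. Ccl6 and Ccl9 (adjusted p = 0.557 and 0.583) were high in 1 library only.

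Of the receptors, Xcr1, the receptor of the lymphotactin XCL1, had 5.53, 6.94 and 8.10 FPKM in control and 6.31, 6.22 and 5.15 FPKM in pre-AML platelets (log2 fold change -0.18, adjusted p = 0.648). Ackr1, the decoy receptor that takes up many chemokines on red cells and endothelium, had 8.11, 6.01 and 4.95 FPKM in control and 7.44, 5.86 and 4.53 FPKM in pre-AML platelets (log2 fold change -0.08, adjusted p = 0.885). Neither differed beyond its spread. Of the 39 genes with a row, 14 were listed at 0 in all 3 controls and 22 had their highest value in pre-AML 3. However, 33 of these 39 were too low to be tested. Among all 4412 tested genes, 14 were at 0 in all controls and 825 were highest in pre-AML 3. The filter on the mean removes most genes at 0 in controls, so these counts are no like background for the 39. A share over all listed genes was not counted. The summed level of the 39 genes was 20.2 to 21.6 FPKM in control platelets. It was 25.0, 20.4 and 97.2 FPKM in pre-AML platelets 1, 2 and 3.

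Serglycin, the proteoglycan that holds Pf4 and other basic proteins in the granule, was the granule gene with the widest separation. Srgn had 1705, 1632 and 1594 FPKM in control platelets and 1385, 1143 and 678 FPKM in pre-AML platelets, with means of 1644 ± 56.3 and 1069 ± 359 (SD, n = 3 each). All pre-AML values were below all control values, as in 12.8% of tested genes. The log2 fold change of -0.68 (standard error 0.24, unadjusted p = 0.0212) did not pass the adjusted threshold (adjusted p = 0.522 from limma-trend). As RPM the values were 3682, 3635 and 3479 in control and 2989, 2541 and 1953 in pre-AML platelets. These again did not overlap, as in 9.78% of genes on that scale. Without pre-AML 3 the log2 fold change was -0.38. The ratio of Pf4 to Srgn was 46.5, 38.1 and 36.4 in control and 43.4, 51.9 and 56.3 in pre-AML platelets, with overlap between groups (exact permutation test, p = 0.2).

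The other genes needed to form alpha-granules were low. Vipas39 averaged 2.83 ± 0.031 FPKM for control against 3.52 ± 0.847 FPKM for pre-AML platelets (SD, n = 3 each). All its pre-AML values were above all its control values, as in 6.14% of tested genes, and its log2 fold change was 0.22 (adjusted p = 0.598 from limma-trend). Its partner Vps33b and the granule scaffold Nbeal2 were below 1 FPKM on average and were not tested.

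Of 15 other granule cargo genes, 14 had a row and 11 were tested, and 0 passed the adjusted threshold in either direction, with 4 fitted changes above 0 and 7 below. At an unadjusted p under 0.05 there was 1, F13a1. Clusterin (Clu), a chaperone, averaged 2347 ± 177 FPKM for control against 2395 ± 282 FPKM for pre-AML platelets (SD, n = 3 each) (adjusted p = 0.952 from limma-trend). Thrombospondin 1 (Thbs1), an adhesive glycoprotein, had 1063 ± 125 and 993 ± 157 FPKM (SD, n = 3 each; adjusted p = 0.804). F13a1, the A chain of coagulation factor XIII, had 207, 152 and 154 FPKM in control and 150, 125 and 95.9 FPKM in pre-AML platelets (log2 fold change -0.47, adjusted p = 0.522). Its pre-AML values were all below its control values, as in 2 of the 11 tested cargo genes and 12.8% of all tested genes.

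Of 7 megakaryocyte transcription factors, 6 were tested, 0 passed the adjusted threshold and 0 had an unadjusted p under 0.05, with 3 fitted changes on each side of 0. Gata1, the GATA factor of the lineage, averaged 79.8 ± 13.3 FPKM for control against 77.3 ± 11.3 FPKM for pre-AML platelets (SD, n = 3 each) (log2 fold change -0.04). Nfe2, needed for platelet shedding, had 123 ± 8.16 and 126 ± 10.8 FPKM (log2 fold change 0.03). Fli1, an ETS factor, had 30.3 ± 4.49 and 26.6 ± 2.55 FPKM (log2 fold change -0.18). Gfi1b, Runx1 and Tal1 had log2 fold changes of 0.07, 0.13 and -0.13. In FPKM the groups overlapped for all 6, whereas as RPM all pre-AML values of Nfe2 and Runx1 were above all control values, as in 11.0% of genes on that scale.

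The libraries held between 11935850 and 17777957 recovered reads on listed genes, and all 9 platelet markers were abundant, with summed levels of 14260 to 16128 FPKM in control and 13577 to 17518 FPKM in pre-AML platelets. Gp9, a subunit of the von Willebrand factor receptor, and Tubb1, the platelet beta-tubulin, led them at 7172 and 3141 FPKM on average, and 0 of 9 passed the adjusted threshold. At an unadjusted p under 0.05, 113 of all tested genes were higher and 288 lower in pre-AML platelets, and 252 and 257 when scaled to the recovered reads. The ratio of Ppbp to the geometric mean of the 9 markers was 21.4, 19.5 and 16.3 in control and 16.9, 16.1 and 13.5 in pre-AML platelets, which overlapped (exact permutation test, p = 0.2).

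Transcripts of other blood cells differed between the libraries. Of 12 T and NK cell markers, 8 had all pre-AML values above all control values. Only 3 of the 12 reached the level needed for testing, and 2 of these 3 did not overlap, where 6.14% of all tested genes were higher without overlap. Cd3g, Cd2, Prf1 and Ncr1 were listed at 0 in all controls. The summed level of all 12 markers was 19.1 to 28.9 FPKM in control and 37.8, 35.1 and 48.4 FPKM in pre-AML platelets. Gzma, a protease of cytotoxic granules, had 0, 0.353 and 0 FPKM in control and 7.25, 4.61 and 8.90 FPKM in pre-AML platelets, and it was the 1 gene that passed the adjusted threshold (adjusted p = 0.00809). This call was lost without control 1, without control 3, with no filter on low values and in limma-voom. It was also lost with the FPKM values scaled to the FPKM sums, the recovered reads or the 9 platelet markers. With at least 1 FPKM needed in every library, Gzma was not tested, because its control values were lower. Nkg7, a cytotoxic granule protein, made up most of the list in controls, with 22.9, 28.2 and 18.9 FPKM there and 25.2, 27.9 and 22.6 FPKM in pre-AML platelets. Without Nkg7 the list summed to 0.254, 0.675 and 0.205 FPKM in control and 12.5, 7.22 and 25.8 FPKM in pre-AML platelets. Ccl5 was at 59.6 to 85.5 FPKM in the control libraries, in which these 11 markers were near 0 and Nkg7 was at 18.9 to 28.2 FPKM. What T and NK cell RNA contributed to Ccl5 in the pre-AML libraries was not tested.

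**Figure D4:**
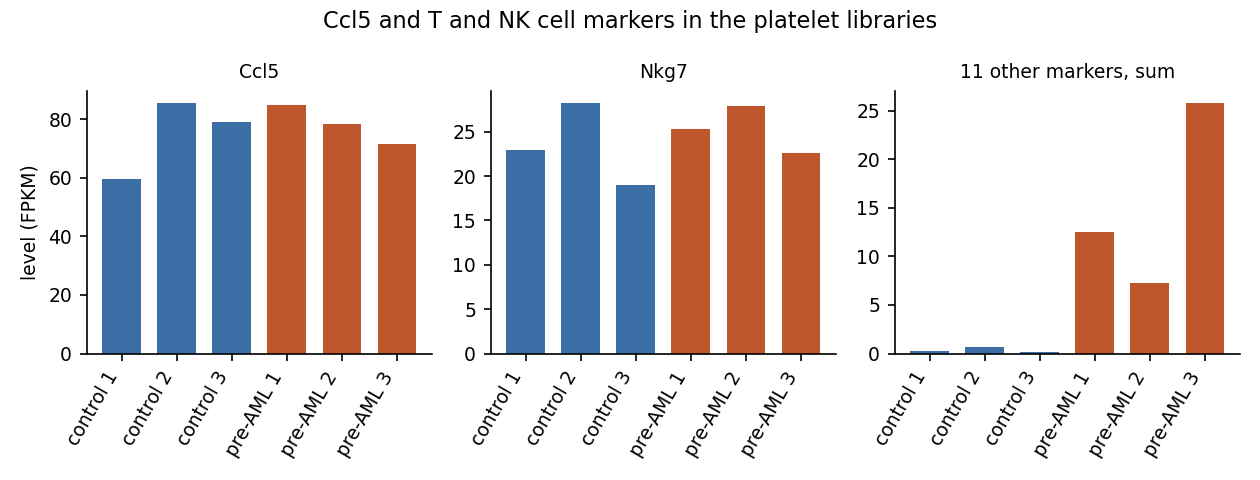
Level (FPKM, y axis from 0, with a separate scale for each panel) of Ccl5, Nkg7 and the sum of the 11 other T and NK cell markers in each library. The sum lies between 0.205 and 0.675 FPKM in control and between 7.22 and 25.8 FPKM in pre-AML platelets, while Ccl5 overlaps between the groups.

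Pre-AML 3, the lowest library for Pf4, Ppbp and Cxcl5, also had the highest level of all 13 monocyte and macrophage markers and of all 7 B cell markers. Only 10 of the 13 and 4 of the 7 reached the level needed for testing. Among all 4412 tested genes, 825 were highest in this library, and the share over all listed genes was not counted. Tyrobp, an adaptor of myeloid and NK cells, had at most 0.533 FPKM in control and 4.85, 4.37 and 153 FPKM in pre-AML platelets. Lyz2, lysozyme, was at 2384 to 2615 FPKM in control and 2483, 2333 and 3093 FPKM in pre-AML platelets. The B cell list, led by the MHC class II invariant chain Cd74 and by Cd79b, summed to 1.46 to 1.86 FPKM in control and 0.881, 19.5 and 227 FPKM in pre-AML platelets, and Pax5 was listed at 0 in all controls. Neutrophil markers, led by S100a8 and S100a9, summed to at most 3.49 FPKM in any library. Of 8 erythroid markers 6 had a row, and they summed to 2350 to 2652 FPKM in control and 2991, 2884 and 2377 FPKM in pre-AML platelets, with Hba-a1 and Hbb-bt highest. The part of these transcripts in the values of the 4 chemokines was not tested, and the values without pre-AML 3 are those given above.

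**Figure D5:**
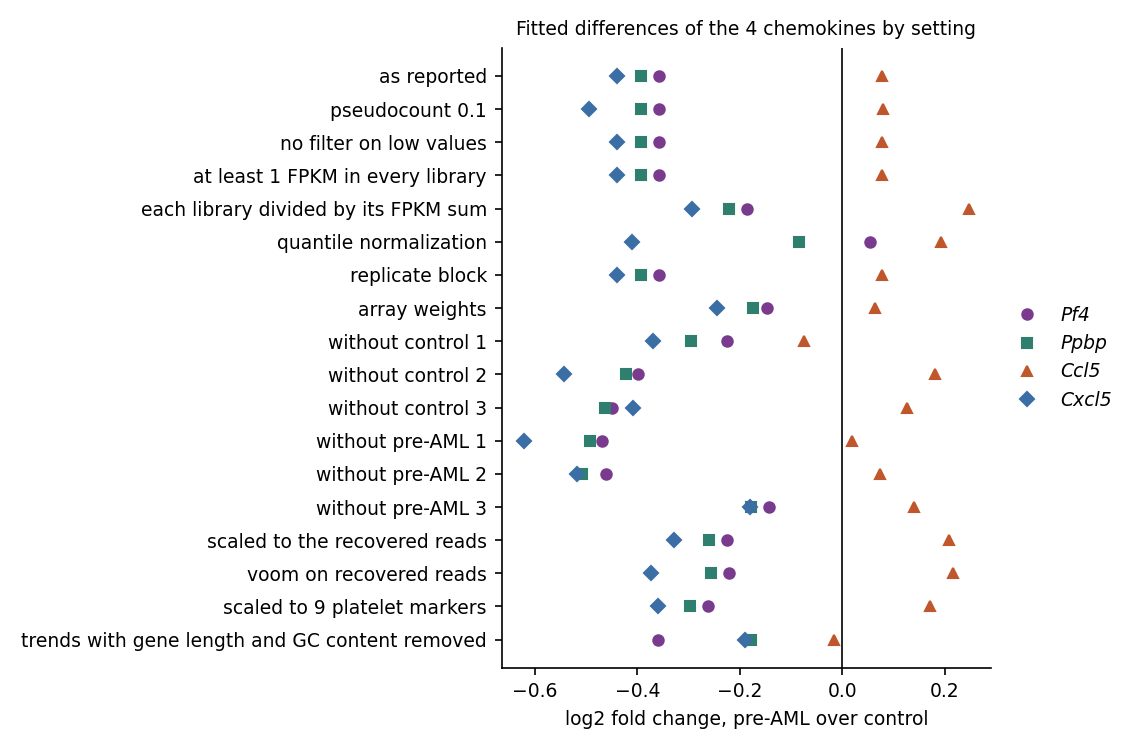
Fitted log2 fold change of pre-AML over control (x axis) of Pf4, Ppbp, Ccl5 and Cxcl5 under the reported setting (top row) and 17 alternatives (rows). Ppbp and Cxcl5 lie below 0 in every row, Pf4 lies above 0 with quantile normalization, and Ccl5 lies below 0 without control 1 and with trends of gene length and GC content removed.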

How the data were processed

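Platelet RNA was converted to cDNA with SMART-Seq2 and to libraries with Nextera XT. Per the labels and the study's methods, the authors mapped reads to mm10 with STAR and tested genes with DESeq2. The counting program and annotation are not given in the sources used here. The authors deposited FPKM values for 14975 genes in 6 libraries, normalized to a library size and to gene length. Columns were assigned to samples by name, and 0 columns of per-sample values were left unused.

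FPKM values are not counts, so genes whose mean reached 1 FPKM were tested by limma-trend (limma 3.58.1, R 4.3.3) on log2(FPKM + 1), with no covariates and Benjamini-Hochberg adjustment at 0.05. Because of the added 1, changes of low genes come out too small. Shares and ratios were compared by exact two-sided permutation tests over libraries (scipy 1.17.1 and pandas 2.3.3 in Python 3.11.15). Whole reads were recovered from FPKM with GENCODE M21 exon lengths (GRCm38). A recovered number was taken as whole within 0.01 of an integer, or within a wider margin at high read numbers. By this rule 85.0% of the values of the 14902 genes with 1 GENCODE M21 model passed. A value of 0 always passes, and of the values above 0 the share was 81.4%. Ccl5 and Cxcl5 passed in each of the 6 libraries. Pf4 and Ppbp passed too, but both had at least 209047 reads per library. Their margin was so wide that passing cannot show whether their reads were recovered exactly. Values of Cxcl3 and Ackr1 did not come out whole. A value listed at 0 allows up to 3 reads in that library, for counting error only. The gene test was checked on simulated data, in which the changes were far larger than those fitted for the 4 chemokines. That check cannot show how often changes as small as theirs would be called.

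The 4 genes and the gene lists were chosen with earlier results of these data known. Genes named are the 4 members, listed chemokine ligands and receptors averaging 1 FPKM or more, granule formation genes, the 3 highest cargo genes, the transcription factors, the 3 genes most like each member, and the 2 highest of each marker list. Cxcl1, Cxcl2, Ccl4, Cd3g, Cd2, Prf1, Ncr1 and Pax5 were named after their values were seen. The sum of the T and NK cell list without Nkg7 was likewise formed after its values were seen. Alternatives were a pseudocount of 0.1, other filters, FPKM-sum scaling, quantile normalization, array weights, a replicate block and leaving out each library. Scaling to recovered reads or 9 platelet markers, limma-voom on recovered reads, and removal of length and GC trends by loess were added after seeing the data.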

Additional observations from a re-analysis of the deposited data

How the results depend on the processing

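None of the 4 chemokines and none of the other chemokine genes passed the adjusted threshold in any of 17 alternatives. Over these, the adjusted p was 0.359 to 0.786 for Pf4, 0.344 to 0.806 for Ppbp, 0.557 to 0.991 for Ccl5 and 0.324 to 0.811 for Cxcl5. An unadjusted p under 0.05 occurred in 0 alternatives for Pf4 and Ccl5, 6 for Ppbp, 1 for Cxcl5 and 14 for Srgn, whose adjusted p was 0.159 to 0.747. With 1 library left out in turn, the log2 fold change was -0.47 to -0.14 for Pf4, -0.51 to -0.18 for Ppbp, -0.07 to 0.18 for Ccl5, -0.62 to -0.18 for Cxcl5 and -0.90 to -0.38 for Srgn. The lone reversal in that series was Ccl5 without control 1 (-0.0743, adjusted p = 0.870). Of the others, Pf4 was 0.0534 with quantile normalization, which gives a gene at rank 1 or 2 the same top values in every library, and Ccl5 was -0.0156 with length and GC trends removed, the cause of which was not tested. Ppbp was -0.08 with quantile normalization. With array weights Pf4 was -0.15 and Ppbp -0.17.

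The number of genes past the threshold, 1 as reported, was 0 with no filter, at least 1 FPKM in every library, FPKM-sum scaling, scaling to recovered reads, limma-voom and scaling to 9 platelet markers, 2 with array weights, and 0 to 2 with 1 library left out (0 without control 1 or control 3, 2 without pre-AML 3). At an unadjusted p under 0.05 the split of higher and lower genes was 275 and 194 with FPKM-sum scaling and 497 and 373 with no filter. The share of the FPKM sum held by the 4 chemokines differed by -2.06 percentage points, and by -2.87 to -0.86 with 1 library left out. Same-numbered libraries did not deviate together (correlations of -0.04, -0.12 and -0.17), and 0 of 6 libraries correlated best with their own number. This cannot settle whether libraries were paired, because deviations within a group cancel out and pre-AML 3 mirrored the other pre-AML libraries. The numbers are taken only as names. With the replicate number as a block, 1 gene passed and Pf4, Ppbp, Ccl5 and Cxcl5 kept log2 fold changes of -0.36, -0.39, 0.08 and -0.44.

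With 3 libraries per group, the intervals given above show which differences are not excluded. Depth limits Cxcl5 most, with 200 to 241 recovered reads per library.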
